A study of Mus musculus with 10 samples.

Results

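The MHC class II presentation genes are 8 mouse genes whose products load and display peptides from outside the cell: H2-Aa, H2-Ab1, H2-Eb1, H2-DMa, H2-DMb1, Cd74, Ciita and Ctss. They were picked by name, as rows of the count table whose gene name is one of the 8, out of 49164 genes with values. All 8 were among the 14062 genes that passed a filter on low counts, and each passed it on its palatal libraries alone, so the filter did not select them for a difference between the sides. The samples were 5 libraries of palatal and 5 of buccal gingival epithelium, the lining of the gum on the side of the palate and on the side of the cheek, peeled off after treatment with the protease Dispase. The labels give no strain, age, sex, genotype, treatment or microbial status for any of these libraries, and both sides share the same housing and handling text. The series' design text speaks of pooled germ-free and specific-pathogen-free samples. No library here is labelled as either, so whether these libraries are those samples is unknown. Nothing says that the libraries of a side came from separate animals, so a p-value here speaks of the scatter among these libraries alone, and that scatter could be technical.

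MHC class II molecules carry peptides made in the endosome to CD4+ T cells. An alpha and a beta chain assemble around the invariant chain, cathepsins cut that chain down to a short remnant, and the DM heterodimer swaps the remnant for a peptide. Dendritic cells, Langerhans cells and B cells make these molecules all the time. Macrophages can make them too, and keratinocytes can be induced to make them by interferon gamma through the co-activator CIITA. In the mouth, Langerhans cells lie within the epithelium.

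CIITA acts through proteins that sit on a conserved promoter module, in which an X box bound by the RFX complex lies a fixed distance upstream of a Y box bound by NF-Y. Promoter windows from RefSeq (build GRCm38.p6, 250 bases before to 50 after the annotated start) were matched by symbol for 5 members, H2-Aa, H2-Eb1, H2-DMa, H2-DMb1 and Ctss. H2-Ab1, Cd74 and Ciita are named only. The stretches below are shown because 3 genes that moved together share this module; the files' counts come from build GRCm39, so these coordinates are those of the RefSeq windows. Capitals mark a 5-base X-box core (G, any base, AAC) and the Y-box core (ATTGG), each read 5′ to 3′ on the gene's strand. The module was defined after these sequences were seen.
H2-Aa: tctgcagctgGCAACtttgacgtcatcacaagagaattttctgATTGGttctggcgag
H2-Eb1: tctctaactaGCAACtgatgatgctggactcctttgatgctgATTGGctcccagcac
H2-DMb1: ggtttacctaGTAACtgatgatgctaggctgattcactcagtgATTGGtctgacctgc

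The H2-Aa stretch lies at chr17:34287857-34287914 on the minus strand, that of H2-Eb1 at chr17:34305766-34305822 and that of H2-DMb1 at chr17:34153087-34153144, both on the plus strand. The X-box core starts 81, 91 and 94 bases before the annotated start of H2-Aa, H2-Eb1 and H2-DMb1, and 28, 27 and 28 bases separate the cores. With both strands searched, the pair of cores 27 or 28 bases apart was found in 128 of 32851 promoter windows (0.390%), while the Y-box core alone, which overlaps the pair, was found in 37.4% of them. The pair was also found in the windows of H2-Oa and H2-Eb2, a class II-like chain and a second beta chain. It was not found in either window of H2-DMa or in those of Ctss, H2-DMb2 and H2-Ob. This says only that these letters are not in those windows. Of these non-member class II chains, H2-DMb2 had lower values in palatal libraries, and H2-Oa, H2-Ob and H2-Eb2 were too low to be tested. The Ctss window holds, instead of the pair, a repeat of GAAA with 2 bases between the copies, the letters read by interferon regulatory factors. This repeat was found on either strand in 3.44% of windows. The window of Sppl2a, an accessory gene that was higher in palatal libraries, holds it too. The Ctss repeat is shown in capitals below because Ctss is the only protease among the members and its window lacks the pair. The stretch ends at the last base before the start and lies at chr3:95526740-95526785 on the plus strand.
Ctss: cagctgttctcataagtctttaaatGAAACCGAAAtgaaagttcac

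All 8 members were lower in palatal than in buccal epithelium. Their log2 fold changes (palatal minus buccal) ran from -1.85 to -1.53, and the median was -1.78, so that palatal levels were 27.7% to 34.7% of buccal ones. All 8 passed an adjusted p of 0.05 in the lower direction (edgeR's quasi-likelihood test, Benjamini-Hochberg adjustment over all tested genes), as did 20.3% of all tested genes; 18.7% passed in the higher direction and 38.9% in either. For all 8, every palatal library lay below every buccal library, which held for 14.7% of tested genes. All 8 were also at least 2-fold lower, as were 5.85% of tested genes. The members were chosen with earlier results of these data known, so setting them beside these shares is a description. The median log2 fold change of all tested genes was 0.01, and 3.19% of tested genes had a value at or below that of the member with the smallest change, H2-DMa. In these bulk samples, fewer cells of a type and less RNA per cell cannot be told apart.

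Levels below are in CPM, a gene's count scaled to a common library size after TMM normalisation. The libraries held 25868777 to 35583168 counts on the palatal side and 29317011 to 37234192 on the buccal side. A single member had between 19 and 1325 counts in a palatal library and between 50 and 4877 in a buccal one. The 8 together had 1967 to 3096 counts in a palatal and 6870 to 12227 in a buccal library, which is 69.3 to 98.8 CPM against 221 to 402 CPM.

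The classical chains are the alpha chain H2-Aa and the beta chain H2-Ab1, which pair as the I-A molecule, and the beta chain H2-Eb1 of the I-E molecule. H2-Aa had 10.1, 13.7, 9.76, 10.4 and 11.8 CPM in palatal libraries 1 to 5, against 46.8, 51.5, 30.6, 35 and 32.3 CPM in buccal libraries 1 to 5. The lowest buccal value was 2.23 times the highest palatal one, and buccal libraries 1 and 2 stood above the other 3. H2-Aa fell by 1.81 ± 0.15 on the log2 scale (SE, n = 5 per side; edgeR adjusted p = 7.03e-07). H2-Ab1 had 16.7, 20.6, 15.7, 19.6 and 21.4 CPM in palatal libraries, against 75.7, 101, 54.3, 54.5 and 53.4 CPM in buccal libraries. Buccal library 2 stood above the rest, and the ranges of the sides again did not meet. H2-Ab1 fell by 1.85 ± 0.19 (edgeR adjusted p = 8.14e-06), the largest of the 8 changes, although its distance from the next ones was smaller than their standard errors. H2-Eb1 had 9.67, 12.5, 9.28, 10.6 and 11.8 CPM in palatal libraries, against 44.3, 48.0, 26.2, 34.0 and 28.6 CPM in buccal libraries, and fell by 1.75 ± 0.17 (edgeR adjusted p = 2.67e-06). The libraries of each side fell in the same order as for H2-Aa. Reads shared with its relative H2-Eb2 would make the division between those genes uncertain.

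H2-Ea, the alpha chain that would complete the I-E molecule, had 0 counts in all palatal libraries together and 1 in all buccal libraries together, and was not tested. A count of 0 allows up to 3 counts. H2-Eb1 had 1606 counts in the palatal and 5710 in the buccal libraries. Mice of the b haplotype, such as C57BL/6, carry an inactive H2-Ea, but the labels name no strain.

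**Figure D1:**
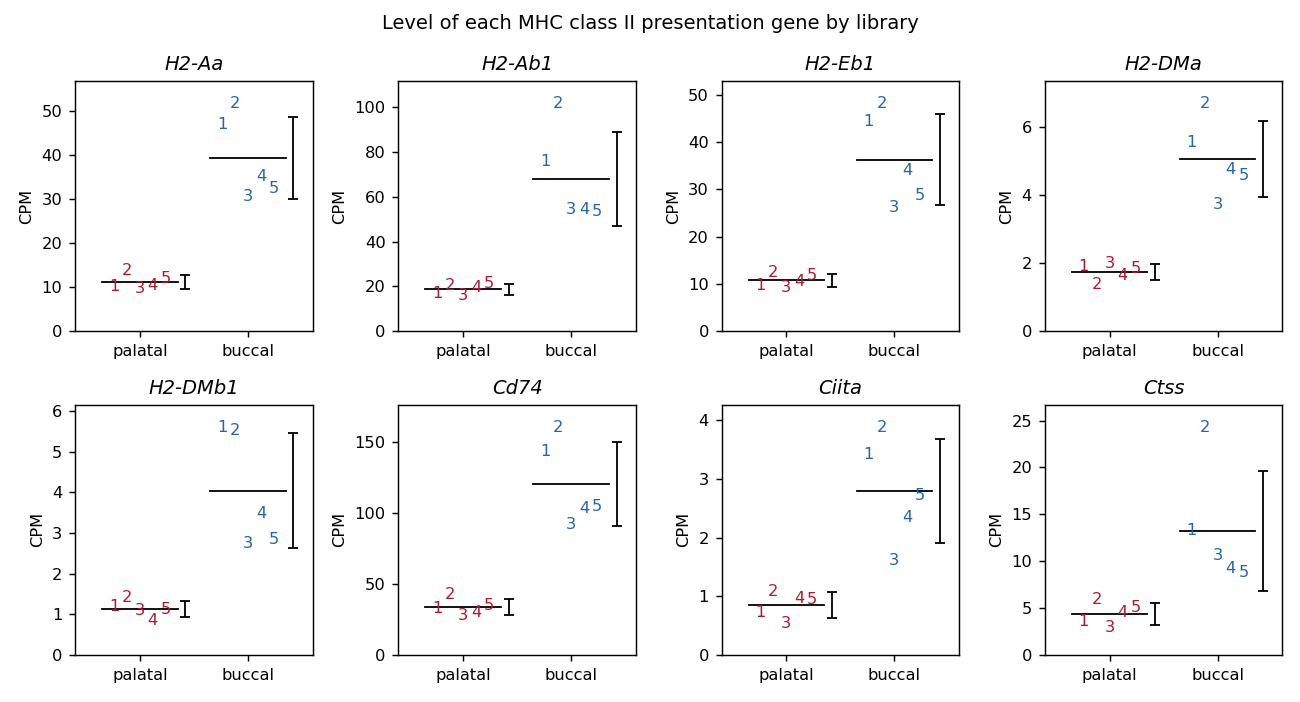
Level of each of the 8 class II genes in CPM (vertical axis, from 0) in palatal and buccal libraries. Digits are library numbers, the line is the mean and the bar beside it the SD (n = 5 per side); in every panel all palatal libraries lie below all buccal ones, and buccal library 2 is the highest for 7 of the 8 genes.

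Cd74 encodes the invariant chain, which occupies the groove and steers the chains to the endosome. It had 32.7, 42.3, 28, 29.8 and 34.6 CPM in palatal libraries, against 143, 160, 91.7, 103 and 105 CPM in buccal libraries. It was the most abundant member on both sides and fell by 1.85 ± 0.16 (SE, n = 5 per side; edgeR adjusted p = 1.75e-06). Ctss encodes cathepsin S, the protease that makes the last cuts in the invariant chain. It had 3.58, 5.87, 2.93, 4.54 and 5.09 CPM in palatal libraries, against 13.3, 24.3, 10.6, 9.26 and 8.79 CPM in buccal libraries. Buccal library 2 lay far above the other 4, and the lowest buccal value was 1.5 times the highest palatal one. Ctss fell by 1.59 ± 0.31 (edgeR adjusted p = 0.00180), with the widest error of the 8; without buccal library 2 it fell by 1.26 (adjusted p = 9.72e-05 by the same edgeR test).

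H2-DMa and H2-DMb1 encode the alpha chain and a beta chain of DM, the peptide exchange catalyst. H2-DMa had 1.89, 1.37, 1.97, 1.63 and 1.84 CPM in palatal libraries, against 5.53, 6.67, 3.71, 4.73 and 4.55 CPM in buccal libraries. Palatal library 2, the highest of its side for 6 of the other 7 members, was the lowest for this one. H2-DMa fell by 1.53 ± 0.16 (SE, n = 5 per side; edgeR adjusted p = 3.87e-06), the smallest change of the 8. H2-DMb1 had 1.19, 1.40, 1.1, 0.837 and 1.12 CPM in palatal libraries, against 5.60, 5.52, 2.74, 3.49 and 2.85 CPM in buccal libraries. It fell by 1.82 ± 0.23 (edgeR adjusted p = 2.05e-05). Its close copy H2-DMb2, not a member, averaged 0.453 ± 0.120 CPM in palatal and 1.18 ± 0.213 CPM in buccal libraries (SD) and fell by 1.40 ± 0.22 (edgeR adjusted p = 1.57e-04). H2-DMb2 passed the low-count filter only with its buccal libraries, so its fall is a description. Reads that fit both copies may have been split or dropped in counting, so the division between them is uncertain.

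Ciita encodes the co-activator that switches on the other class II genes. It was the least abundant member, with 0.729, 1.09, 0.536, 0.956 and 0.938 CPM in palatal libraries, against 3.41, 3.88, 1.61, 2.35 and 2.72 CPM in buccal libraries. The sides came nearest to each other for this gene, since the lowest buccal value was 1.48 times the highest palatal one. Ciita fell by 1.73 ± 0.25 (SE, n = 5 per side; edgeR adjusted p = 6.23e-05), on 19 to 34 counts in a palatal and 50 to 118 in a buccal library.

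Per kilobase of the principal annotated mRNA, Cd74 had 23.8 ± 3.93 CPM in palatal and 85.5 ± 20.9 CPM in buccal libraries (SD, n = 5 per side). H2-Ab1 followed at 15.5 ± 2.05 CPM per kilobase in palatal and 56.0 ± 17.3 in buccal libraries. H2-Aa stood at 9.90 ± 1.43 and 34.8 ± 8.27, and H2-Eb1 at 6.45 ± 0.821 and 21.7 ± 5.76 CPM per kilobase in palatal and in buccal libraries. The order from Cd74 down to H2-Eb1 was thus the same on both sides. Neighbours in it did not overlap in palatal libraries, whereas in buccal libraries the range of each overlapped that of the next. Ctss had 3.25 ± 0.864 CPM per kilobase in palatal and 9.77 ± 4.73 in buccal libraries, and its buccal range overlapped that of H2-Eb1. H2-DMa (1.05 ± 0.146 and 3.04 ± 0.675) and H2-DMb1 (0.805 ± 0.145 and 2.88 ± 1.01) overlapped on both sides, and Ciita was lowest at 0.141 ± 0.0360 CPM per kilobase in palatal and 0.465 ± 0.148 in buccal libraries. The place of H2-Aa depends on the length used: over all annotated exons, which for H2-Aa span 3.80 kb against 1.13 kb in the principal mRNA, H2-Aa came out below H2-Eb1 on both sides, and H2-DMa below H2-DMb1. Cd74 stayed highest and Ciita lowest with either length.

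Within a library, the chains kept close proportions to Cd74, and the less abundant members mostly looser ones. The ratio of H2-Aa to Cd74, in CPM, was 0.310 to 0.348 in palatal and 0.309 to 0.339 in buccal libraries, a narrow band that did not separate the sides. H2-Ab1 stood at 0.488 to 0.656 of Cd74 in palatal and 0.510 to 0.634 in buccal libraries. The ratios of the less abundant members spread more widely on the log2 scale, except that of H2-DMa in buccal libraries. H2-DMa stood at 0.0325 to 0.0705 of Cd74 in palatal and 0.0386 to 0.0459 in buccal libraries, Ciita at 0.0191 to 0.0320 in palatal and 0.0176 to 0.0260 in buccal libraries, and Ctss at 0.105 to 0.152 in palatal and 0.0840 to 0.152 in buccal libraries. For all 7 other members the ratio to Cd74 overlapped between the sides. The median log2 ratio differed by -0.03 (H2-DMb1) to 0.58 (Ctss), palatal minus buccal. These ratios are descriptions and were not tested.

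The listed regulators upstream of Ciita and at the class II promoter behaved unlike each other. The DNA-binding factors of the promoter module did not pass the test: 0 of 7 tested genes (Rfx5, Rfxap, Rfxank, Nfya, Nfyb, Nfyc and Creb1) were called in either direction by edgeR, where the median of the fold changes was -0.03 on the log2 scale and values ran from -0.08 ± 0.10 for Nfyb to 0.17 ± 0.08 for Creb1. In the main fit none of the 7 had an unadjusted edgeR p under 0.05, and DESeq2 and limma-voom called 0 each. Such a p was found for 1 of the 7 without the filter and without buccal library 2 or 3 or palatal library 1 or 2. The lowest of these edgeR p-values was 0.0270, without palatal library 2, and 0 factors were called in these fits. With library 2 left out on both sides, edgeR called 1 of the 7, Creb1, as higher in palatal libraries. Rfx5, the DNA-contacting subunit of RFX, averaged 17.2 CPM in palatal and 17.6 CPM in buccal libraries. Of 11 listed genes of interferon gamma signalling to Ciita, 10 were tested, of which 7 fell and 1 rose, with a median of -0.60. Irf1, which binds the interferon-inducible Ciita promoter, had 4.87, 8.71, 5.28, 4.62 and 5.49 CPM in palatal libraries, against 16.6, 34.9, 15.9, 14.7 and 12.5 CPM in buccal libraries. The sides did not overlap and library 2 was the highest on each. Irf1 fell by 1.70 ± 0.30 (SE; edgeR adjusted p = 0.00117). The kinase gene Jak2 fell by 1.02 ± 0.10 and the receptor chains Ifngr2 and Ifngr1 by 0.67 ± 0.10 and 0.53 ± 0.10. The kinase gene Jak1 rose by 0.18 ± 0.07 (edgeR adjusted p = 0.0397), a call lost in 6 of the 10 fits that leave out 1 library (without buccal library 1, 4 or 5 or palatal library 1, 3 or 5, highest adjusted p = 0.104). Ifng itself was too low to be tested, with 4 counts in the palatal and 28 in the buccal libraries.

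**Figure D2:**
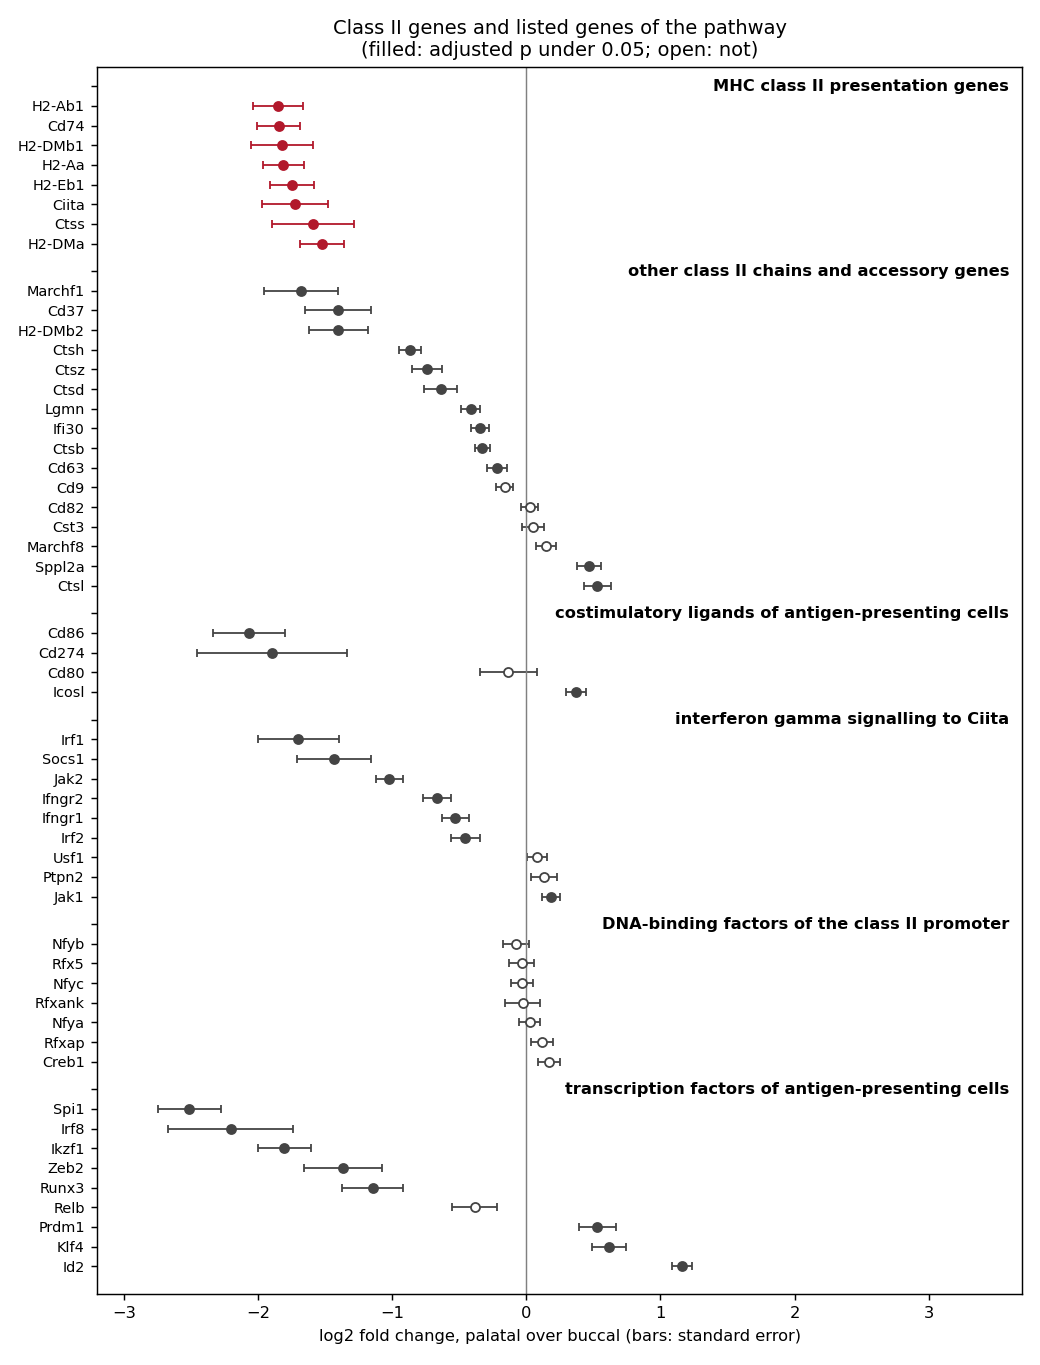
Log2 fold change, palatal over buccal (horizontal axis, bars are standard errors, n = 5 per side), of the class II genes (red) and of tested genes of 5 pathway lists (grey; 1 tested gene is not drawn). Filled points passed an adjusted p of 0.05 in edgeR and open points did not; the 8 class II genes lie between -1.85 and -1.53 and the 7 promoter-binding factors between -0.08 and 0.17.

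The other chains and the accessory genes of the pathway were mixed. Of 20 listed, 16 were tested, of which 10 fell and 2 rose, and the list's median was -0.34 on the log2 scale. The 3 with the largest falls, Marchf1, Cd37 and H2-DMb2, passed the filter only with their buccal libraries, where they are higher, so their falls are descriptions; of the 13 that passed on palatal libraries alone, 7 fell and 2 rose. Marchf1, a ubiquitin ligase that removes class II molecules from the surface of antigen-presenting cells, averaged 0.489 CPM in palatal and 1.55 CPM in buccal libraries and fell by 1.68 ± 0.28 (SE; edgeR adjusted p = 2.22e-04). Endosomal proteases and reductases that many cell types make fell less. Ctsh fell by 0.87 ± 0.08, Ctsz by 0.74 ± 0.11, Lgmn (asparaginyl endopeptidase) by 0.42 ± 0.07 and the thiol reductase gene Ifi30 by 0.35 ± 0.07. Ctsl, which encodes the cathepsin that cuts the invariant chain in thymic epithelium, rose by 0.53 ± 0.10 and averaged 197 CPM in palatal and 137 CPM in buccal libraries (edgeR adjusted p = 6.94e-04). Sppl2a, the membrane protease that removes the last fragment of the invariant chain, rose by 0.47 ± 0.09 (edgeR adjusted p = 7.90e-04). H2-Oa and H2-Ob, the chains of the DM inhibitor DO, and H2-Eb2 were too low to be tested, with 11 to 25 counts in the palatal and 20 to 40 in the buccal libraries.

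Costimulatory ligands, the second signal to T cells, were mostly at or near the filter. Of 8 listed, 4 were tested, of which 2 fell and 1 rose. Cd86 averaged 0.476 CPM in palatal and 2.0 CPM in buccal libraries and fell by 2.07 ± 0.27 (SE, n = 5 per side; edgeR adjusted p = 2.30e-05), but it passed the filter only with its buccal libraries, so this fall is a description. Cd274, the PD-L1 gene, fell by 1.90 ± 0.56 (edgeR adjusted p = 0.0228), and its sides overlapped. Buccal library 2 had 11.8 CPM of Cd274 and the other 4 had 1.87 to 3.41 CPM. Without that library Cd274 fell by 1.19, and in 4 of the 10 fits that leave out 1 library it lost its call (without palatal library 1, 3, 4 or 5, highest edgeR adjusted p = 0.0577). Icosl rose by 0.37 ± 0.08 (edgeR adjusted p = 0.00116), and Cd80 stood at -0.13 ± 0.21 (adjusted p = 0.656).

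The transcription factors of antigen-presenting cells were mixed. Of 11 listed, 9 were tested, of which 5 fell and 3 rose. Irf8 and Zeb2 passed the filter only with their buccal libraries, so their falls are descriptions, and of the 7 that passed on palatal libraries alone 3 fell. Spi1, the PU.1 factor of myeloid and B cells, had 0.596, 0.383, 0.367, 0.398 and 0.650 CPM in palatal libraries, against 3.22, 3.81, 2.09, 2.18 and 2.40 CPM in buccal libraries. The lowest buccal library was above every palatal one, and Spi1 fell by 2.51 ± 0.23 (SE; edgeR adjusted p = 9.52e-07). Irf8, a factor of dendritic cells and monocytes, fell by 2.20 ± 0.47 and Ikzf1, a factor of all lymphoid and many myeloid cells, by 1.81 ± 0.20. The 3 that rose were Id2 by 1.16 ± 0.07, Klf4 by 0.61 ± 0.13 and Prdm1 by 0.53 ± 0.14, all of which keratinocytes also express, at 56.9, 865 and 105 CPM on average in palatal and 25.4, 565 and 72.9 CPM in buccal libraries.

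Markers of the cells that carry class II molecules moved with the members, and their part in the result was not tested. All 8 listed pan-leukocyte genes fell, their median being -1.80 on the log2 scale, and their summed level was 13.5 to 19.2 CPM in palatal and 44.6 to 74.4 CPM in buccal libraries. Ptprc, the CD45 gene, had 2.68, 3.26, 2.34, 2.99 and 2.67 CPM in palatal libraries, against 7.24, 12.4, 8.25, 8.26 and 7.27 CPM in buccal libraries. As for the class II genes, no palatal library reached a buccal one and buccal library 2 was the highest. Of 10 listed Langerhans cell markers 8 were tested, of which 5 fell and 1 rose. The 5 that fell were Cd207, Mfge8, Epcam, Csf1r and Itgax. Mfge8 and Epcam averaged 24.7 and 28.7 CPM in palatal and 54.4 and 48.4 CPM in buccal libraries, well above Cd207. Whether keratinocytes account for part of those levels was not tested. Cd207, which encodes langerin, had 1.56, 1.66, 1.92, 1.43 and 2.17 CPM in palatal libraries, against 7.69, 9.10, 5.51, 7.81 and 7.69 CPM in buccal libraries. It fell by 2.11 ± 0.15 (SE; edgeR adjusted p = 5.25e-08). The summed level of the list ran the other way, 1658 to 1821 CPM in palatal and 1123 to 1255 CPM in buccal libraries, and most of it came from Cd24a, which keratinocytes also express and which averaged 1358 CPM in palatal and 810 CPM in buccal libraries.

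Of 17 monocyte and macrophage markers 14 were tested, of which 10 fell and 1 rose, with a summed level of 28.5 to 34.1 CPM in palatal and 36.9 to 59.0 CPM in buccal libraries. The member that rose was Itgam, by 2.70 ± 0.18. Of 11 dendritic cell markers 4 were tested and 3 fell (2.29 to 3.57 CPM summed in palatal, 6.96 to 12.9 CPM in buccal libraries); Clec9a and Clec10a had fewer than 5 counts on each side. Of 14 T cell markers 10 were tested, of which 9 fell and 1 rose, with a summed level of 35.2 to 44.6 CPM in palatal and 40.0 to 46.8 CPM in buccal libraries. Thy1, which rose, and Cd5 made up most of that sum, and the other 10 with values summed to 2.88 to 3.64 CPM in palatal and 9.64 to 13.4 CPM in buccal libraries. Of 10 B cell markers 2 were tested and 1, Fcer2a, fell; the list summed to 1.55 to 2.79 CPM in palatal and 2.32 to 4.46 CPM in buccal libraries. The defining B cell genes were near the bottom, with Ms4a1 at 17 counts in the palatal and 21 in the buccal libraries and Cd79a at 23 in palatal and 25 in buccal libraries. No listed marker that has values was at 0 in all 10 libraries. Of the tested markers of these cell types, 5 T cell, 3 dendritic cell, 3 macrophage and 1 B cell marker needed buccal libraries to pass the filter. All but Cd209a and Aif1, which were not called, were called lower, and those falls are descriptions. Among the tested markers that passed on palatal libraries alone, 4 of 5 T cell, 1 of 1 dendritic cell, 8 of 11 macrophage and 0 of 1 B cell markers fell. Of all tested genes 20.3% were called lower. The lists share genes, so their counts are not separate. That dendritic cell marker, Itgax, is also a listed Langerhans cell marker, and Csf1r is on the Langerhans and the macrophage lists.

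Tissue markers were those of a stratified epithelium. Keratinocyte markers summed to 97047 to 106362 CPM in palatal and 137043 to 155492 CPM in buccal libraries, and 6 of 12 rose and 3 fell. Krt4 and Krt13, which fell, made up most of the buccal sum. Krt4 averaged 13853 CPM in palatal and 57984 CPM in buccal libraries, and Krt13 34511 and 58477 CPM. Of 7 fibroblast markers 4 were tested, of which 1, Dcn, rose and 3 were not called. The summed level was 70.1 to 89.3 CPM in palatal and 6.82 to 12.9 CPM in buccal libraries. Most of that sum came from Dcn, which averaged 73.3 CPM in palatal and 6.61 CPM in buccal libraries. Of 7 endothelial markers 2 were tested and 1 fell (3.22 to 8.13 CPM summed in palatal, 4.60 to 8.31 CPM in buccal libraries). Of 8 neutrophil markers 3 were tested and 1, Cxcr2, fell (19.7 to 48.5 CPM in palatal, 34.6 to 92.9 CPM in buccal libraries).

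Set against single leukocyte genes within each library, the members' levels met or parted depending on the gene. Against Ptprc the ratios of all 8 overlapped between the sides: that of Cd74 was 9.99 to 13.0 in palatal and 11.1 to 19.8 in buccal libraries. Against Itgax, the CD11c gene of dendritic and Langerhans cells, all 8 overlapped as well, with Cd74 at 18.4 to 24.2 in palatal and 18.3 to 25.8 in buccal libraries. Relative to Cd207, 7 of 8 overlapped, and the ratio of H2-DMa was higher in every palatal library (0.827 to 1.21) than in any buccal one (0.592 to 0.733). Relative to Csf1r, the receptor gene of macrophages and Langerhans cells, Cd74 was lower in every palatal library (7.47 to 10.9) than in any buccal one (12.2 to 14.0). H2-Aa, H2-Ab1 and H2-Eb1 did the same, while the other 4 members overlapped. Against the macrophage marker Adgre1 all 8 overlapped, and median log2 ratios differed by -0.86 to -0.32, palatal minus buccal. These ratios too are descriptions with no test, and those of H2-DMa rest on 41 to 70 counts in a palatal library. The genes divided by were thin as well. All palatal libraries together held 263 counts of Cd207, 235 of Itgax and 54 of Adgre1.

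**Figure D3:**
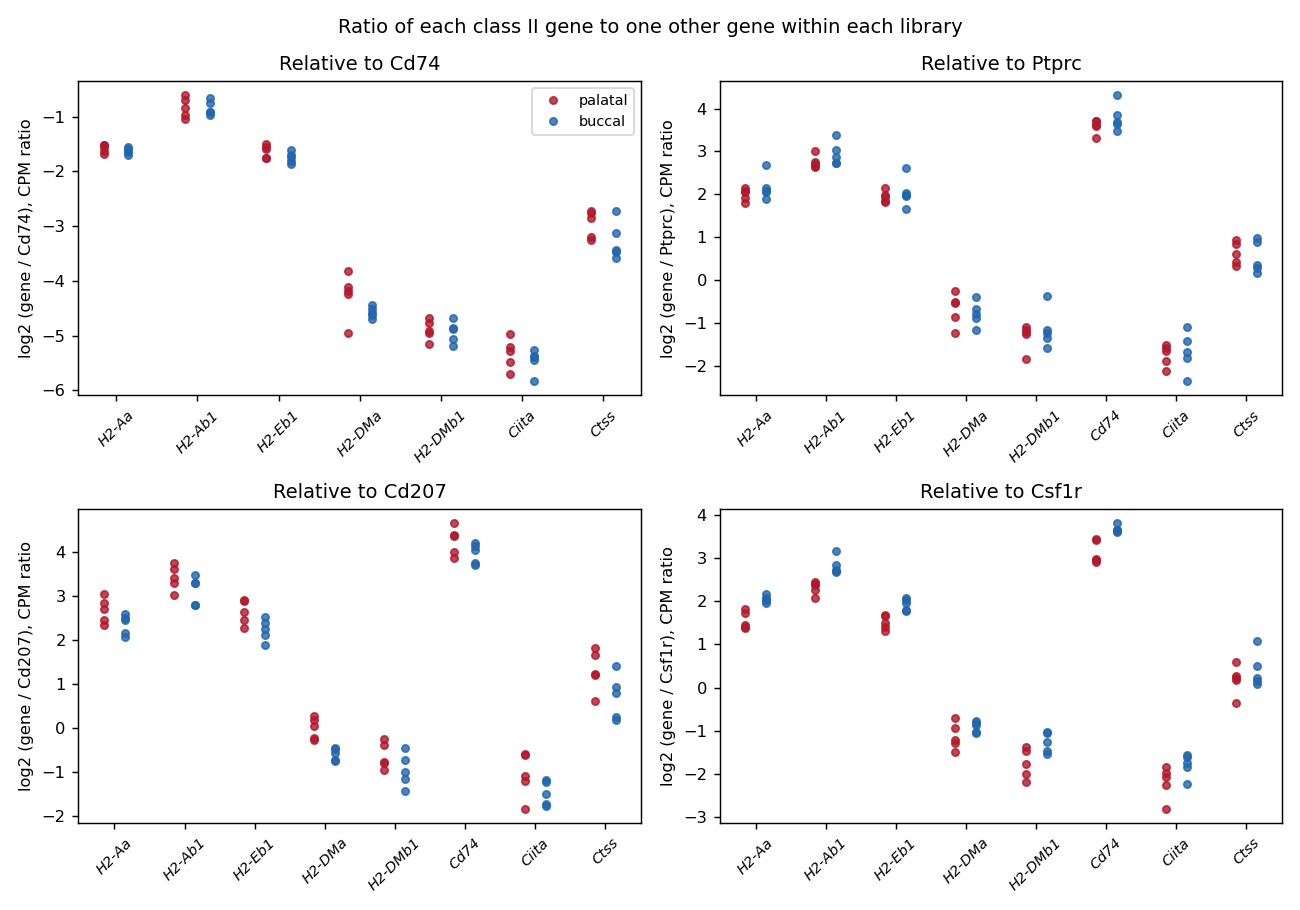
Log2 ratio, in CPM, of each class II gene to Cd74, Ptprc, Cd207 or Csf1r within a library (vertical axes), with 1 point per palatal (red) or buccal (blue) library. The sides overlap for every gene against Cd74 and Ptprc, whereas Cd74, H2-Aa, H2-Ab1 and H2-Eb1 are lower in every palatal library against Csf1r.

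Libraries of the same side also differed in a shared way. For 7 of 8 members the buccal maximum was in library 2, and for 6 of 8 the palatal maximum was in library 2 as well. Library 3 was the lowest for 6 of 8 on each side. The buccal libraries varied more, with coefficients of variation of 22.2% to 48.4% against 12.7% to 26.6% in palatal libraries. After each gene's log2 CPM was centred on its side, 7 members correlated with the mean of the other 7 at Pearson's r of 0.83 to 0.97 over the 10 libraries, and H2-DMa at 0.50. These correlations are descriptions over libraries, and all genes of a library share its depth and handling. The 8 genes outside the list that were most like the members by the same measure, among 12236 genes with a mean of at least 1 CPM, were C1qa (r = 0.974), Gm14062, Gsdmd, Laptm5, C1qb, Scarb2, Mboat1 and Chst11 (r = 0.913). C1qa and C1qb encode chains of complement C1q, which macrophages secrete, and Laptm5 a lysosomal protein of leukocytes. Gsdmd encodes the pore-forming gasdermin D, and Scarb2 a lysosomal membrane protein. Of these 8 genes 6 were called lower, Mboat1 was called higher, and Gm14062 stood at -0.61 ± 0.24 (edgeR adjusted p = 0.0539). C1qa fell by 1.61 ± 0.33 (SE; edgeR adjusted p = 0.00169) and Laptm5 by 1.78 ± 0.16 (adjusted p = 5.97e-07 in edgeR), Gsdmd by 1.12 ± 0.22, C1qb by 1.31 ± 0.38, Chst11 by 0.63 ± 0.10 and Scarb2 by 0.25 ± 0.07. Mboat1 rose by 0.85 ± 0.08.

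**Figure D4:**
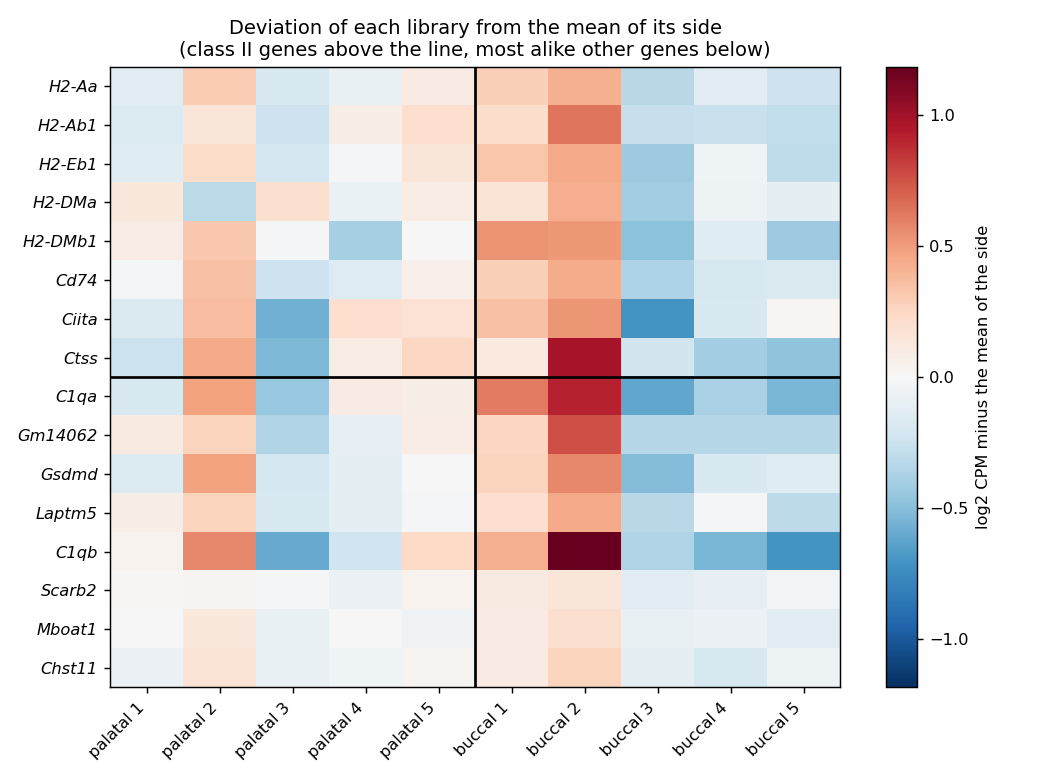
Deviation of each library from the mean of its own side in log2 CPM (colour) for the 8 class II genes (above the line) and the 8 other genes most like them (below the line), with libraries as columns. Library 2 is above the mean of its side for most genes on both sides and library 3 below it; H2-DMa in palatal library 2 is an exception at -0.32.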

How the data were processed

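Polyadenylated RNA of 10 libraries was counted per gene by the authors, and the deposited table gives, per the file headers, raw counts and DESeq2-normalized values, a signal equal to the count divided by 1 factor per library; that signal was only checked. Tools listed, without roles, in the submitters' processing notes are DESeq2 1.36.0, HTSeq 2.01, TopHat2 2.1.1 and cutadapt 2.10, with build GRCm39; the strand setting is not given in the sources used here. Of 55414 genes, 6250 blank in every library were left out.

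Genes were kept by filterByExpr (minimum count 10), scaled by TMM and tested with edgeR's quasi-likelihood F-test, two-sided, Benjamini-Hochberg adjusted over 14062 genes (edgeR 4.0.16, limma 3.58.1, DESeq2 1.42.0, R 4.3.3; tested on simulated data). A standard error is the fold change over the square root of F. Log2 CPM uses a prior count of 2. Lengths are from GENCODE M21, the APPRIS principal transcript. The floor of 3 counts covers counting error only. Named genes are all members, up to 4 called genes of each list by smallest p, those a sentence turns on, and the 8 other genes with the highest side-centred correlation. Some listed genes are counted but not reported here by name. Members and lists were chosen with earlier results of these data known. The alternatives were other scalings, filters and tools, a replicate block, leaving out libraries, and stricter thresholds.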

Additional observations from a re-analysis of the deposited data

How the results depend on the processing

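All 8 members stayed lower in palatal and past the threshold under each of the 20 alternatives run, and 0 were called higher. Leaving out each library in turn gave 8 to 8 members lower and 0 to 0 higher; among listed pathway genes it gave 23 to 26 lower and 6 to 7 higher, against 24 and 7 with all libraries. Over all alternatives the log2 fold change ran from -1.94 to -1.73 for Cd74, from -1.61 to -1.33 for H2-DMa and from -1.72 to -1.26 for Ctss, whose highest adjusted p was 0.0162 in the test against a fold of 1.5. In that test 14 listed pathway genes were lower and 1 higher, fewer because it asks for more than a difference from 0. Without number 2 on both sides 8 members, 24 lower and 8 higher pathway genes were called. The shared numbers 1 to 5 are not said to pair samples, and same-numbered libraries deviated together with correlations of -0.02 to 0.33, with 2 of 5 palatal libraries closest to their own number; with the replicate block 8 members, 25 lower and 6 higher pathway genes were called. Counts of 19 to 34 per palatal library limit the precision for Ciita.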

Other observations

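Genes that lie between the class II genes on chromosome 17 were lower in palatal epithelium as well. In the RefSeq gene order (GRCm38.p6), 12 protein-coding genes run from H2-DMa to H2-Eb2, of which 5 are members and were known to be lower. Of the other 7, H2-Ob and H2-Eb2 were not tested, H2-DMb2 passed the filter only with its buccal libraries, and the remaining 4 fell by edgeR's test, in which 20.3% of all tested genes fell. The 4 that are no class II genes serve MHC class I presentation and lie next to each other. The immunoproteasome subunit genes Psmb8 and Psmb9 fell by 2.31 ± 0.48 and 2.23 ± 0.36 (SE, n = 5 per side), with mean levels of 3.09 and 2.94 CPM in palatal and 15.5 and 13.9 CPM in buccal libraries. The peptide transporter genes Tap1 and Tap2 fell by 1.38 ± 0.19 and 1.66 ± 0.21 and averaged 22.6 and 11.7 CPM in palatal and 58.7 and 37.2 CPM in buccal libraries (edgeR adjusted p = 1.31e-04 and 8.04e-05). This stretch was looked at after the members' values were known.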
